A study of Saccharomyces cerevisiae S288C with 24 samples.

Results

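The 10 genes described here encode amino acid and peptide permeases of the yeast plasma membrane: AGP1 (YCL025C), GNP1 (YDR508C), BAP2 (YBR068C), BAP3 (YDR046C), TAT1 (YBR069C), TAT2 (YOL020W), DIP5 (YPL265W), MUP1 (YGR055W), MUP3 (YHL036W) and PTR2 (YKR093W). They were chosen by name, with earlier results of these data known, so counts of called genes among them are descriptive. Each was found at 1 locus among the 6929 loci of the expression table. All 10 passed the filter on low values, a mean of at least 1 FPKM (a level corrected for transcript length and for depth) over all libraries, as did 6346 loci in all. The cells were *Saccharomyces cerevisiae* BY4741 (WT) and Sc12, a strain of the same background from the yeast deletion collection in which *TRP5*, the gene of tryptophan synthase, was removed. Cultures in YPD, a rich medium of yeast extract, peptone and glucose, were started at equal density and harvested after 24 h. The groups of Sc12 were Sc12 + IB + Trp, Sc12 + IB, Sc12 + Trp and Sc12, and those of the wild type were WT + IB + Trp, WT + IB, WT + Trp and WT, where IB is 1.2% isobutanol and Trp is 200 µg/ml tryptophan. Each of the 8 groups held 3 libraries, 24 in all. Both strains carry the auxotrophic deletions of BY4741. Of the deleted genes only *LEU2*, *MET17* and *URA3* were looked up here. They had 0 fragments over all libraries, so leucine, methionine and uracil had to come from the medium in every group. Sc12, which lacks *TRP5*, also depended on the medium for tryptophan. Whether further amino acids had to be imported was not looked up. Sc12 is 1 deletion strain, and no strain with *TRP5* put back was among the samples.

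Amino acids enter yeast through permeases that differ in their substrates and in how they are controlled. Many of these genes are switched on by the SPS sensor, a complex of Ssy1, Ptr3 and Ssy5 at the plasma membrane, which detects amino acids outside the cell and frees the transcription factors Stp1 and Stp2 to enter the nucleus. Others answer to the nitrogen or sulfur supply, or to Gcn4, the activator of general amino acid control. A cell that cannot make tryptophan depends on import, mainly through Tat2, and on tryptophan carried by broader permeases or taken up inside peptides through Ptr2.

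Depth was 5218712 to 14580261 fragments per library. *TRP5* had 0 to 11 fragments in the libraries of Sc12 and 2921 to 8481 in those of WT. The libraries Sc12 replicate 3 and Sc12 + Trp replicate 1 are named as make-up libraries, and no other batch is named. The scaling factors between libraries (TMM of edgeR) were 0.588 to 0.687 in Sc12 + IB and 0.97 to 1.144 elsewhere. With library totals in place of this scaling, the median over all loci of the log2 fold change in Sc12 + IB against Sc12 was −0.843, where it was −0.02 with it. Levels are given as CPM, counts brought to a common library size after that scaling, and a gene is called higher or lower in a comparison when its log2 fold change exceeds 1 in size and its adjusted p in edgeR's quasi-likelihood test, over all 6346 loci, is below 0.05. Whether the 3 replicates of a group came from separate cultures is not given in the sources used here, and p-values therefore cover only the spread among these samples, which may be technical.

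The DNA upstream of the permease genes was read from the RefSeq genome R64, which is the sacCer3 build of the files. Stp1 binds sites with the core CGGC, and the window from 600 to 301 bases before the start codon is shown for 3 genes with many such letters, *AGP1*, *BAP3* and *TAT1*, and for 2 with few, *TAT2* and *PTR2*. Capitals mark CGGC on either strand (CGGC or GCCG), and matches that overlap were each counted. The windows are chrIII:78220-78519 for *AGP1*, chrIV:550877-551176 for *BAP3* and chrII:378734-379033 for *TAT1*, all on the minus strand, and chrXV:285572-285871 for *TAT2* and chrXI:615130-615429 for *PTR2*, both on the plus strand.
AGP1: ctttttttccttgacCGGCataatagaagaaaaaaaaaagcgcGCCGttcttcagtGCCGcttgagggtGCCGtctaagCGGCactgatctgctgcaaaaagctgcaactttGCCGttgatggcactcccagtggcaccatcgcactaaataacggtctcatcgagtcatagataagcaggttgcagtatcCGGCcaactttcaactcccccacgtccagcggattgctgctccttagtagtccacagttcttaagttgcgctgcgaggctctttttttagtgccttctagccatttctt
BAP3: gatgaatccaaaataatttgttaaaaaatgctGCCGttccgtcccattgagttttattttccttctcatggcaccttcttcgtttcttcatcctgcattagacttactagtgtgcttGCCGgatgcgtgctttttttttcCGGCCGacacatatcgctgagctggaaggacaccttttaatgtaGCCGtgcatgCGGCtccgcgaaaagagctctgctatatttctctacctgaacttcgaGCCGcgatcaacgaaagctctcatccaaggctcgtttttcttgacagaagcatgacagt
TAT1: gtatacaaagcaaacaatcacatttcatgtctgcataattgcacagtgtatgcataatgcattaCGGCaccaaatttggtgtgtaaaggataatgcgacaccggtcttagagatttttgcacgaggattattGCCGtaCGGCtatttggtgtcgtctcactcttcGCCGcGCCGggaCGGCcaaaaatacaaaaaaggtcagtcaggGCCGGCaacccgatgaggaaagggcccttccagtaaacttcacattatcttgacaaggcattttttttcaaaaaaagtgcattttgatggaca
TAT2: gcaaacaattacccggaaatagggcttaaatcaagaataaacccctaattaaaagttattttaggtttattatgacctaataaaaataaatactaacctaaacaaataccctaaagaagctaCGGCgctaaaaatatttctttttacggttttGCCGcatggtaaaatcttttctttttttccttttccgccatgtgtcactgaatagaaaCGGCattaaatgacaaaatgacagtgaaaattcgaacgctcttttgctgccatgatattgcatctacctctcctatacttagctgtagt
PTR2: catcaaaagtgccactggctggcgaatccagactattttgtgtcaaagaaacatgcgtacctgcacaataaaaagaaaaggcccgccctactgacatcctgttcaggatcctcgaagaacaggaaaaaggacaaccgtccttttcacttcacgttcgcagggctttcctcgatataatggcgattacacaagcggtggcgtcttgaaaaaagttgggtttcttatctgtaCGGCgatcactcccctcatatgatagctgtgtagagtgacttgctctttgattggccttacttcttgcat
The number of matches in this window was 10 in *MUP1*, 8 in *TAT1*, 7 in *AGP1*, *GNP1*, *BAP2* and *BAP3*, 5 in *DIP5*, 3 in *TAT2*, 2 in *MUP3* and 1 in *PTR2*. Of these permeases 7 had at least 5 matches, as did 1.7% of 5999 yeast genes in a window of the same length and place, a limit set after the counts were seen. All 10 had at least 1 match within 600 bases, but so did 75.3% of all genes. Within 300 bases only 3 of the 10, *AGP1*, *BAP2* and *MUP3*, had a match, against 47.5% of all genes.

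The 2 methionine permeases carried letters known from other factors nearer to the gene. Their windows from 300 to 101 bases before the start codon, chrVII:599117-599316 for *MUP1* and chrVIII:25941-26140 for *MUP3*, both on the plus strand, are shown with the letters of the Gcn4 site (TGACTC, or GAGTCA) and of the Met31 and Met32 site (CTGTGG, or CCACAG) in capitals, since Met31 and Met32 regulate sulfur genes.
MUP1: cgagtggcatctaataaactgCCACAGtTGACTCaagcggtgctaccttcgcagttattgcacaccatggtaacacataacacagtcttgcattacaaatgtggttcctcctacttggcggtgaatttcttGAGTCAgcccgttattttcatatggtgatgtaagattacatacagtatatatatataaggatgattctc
MUP3: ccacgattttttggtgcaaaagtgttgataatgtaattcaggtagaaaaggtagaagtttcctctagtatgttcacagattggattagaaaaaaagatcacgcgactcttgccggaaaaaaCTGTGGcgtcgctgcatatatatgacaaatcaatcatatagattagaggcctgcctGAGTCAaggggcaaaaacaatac
Within 300 bases of the start codon, TGACTC on either strand was found in *BAP2*, *MUP1* and *MUP3*, that is 3 of 10, and in 7.77% of 6001 genes. CTGTGG on either strand was found in *MUP1*, *MUP3* and *PTR2*, and in 6.85% of all genes. GATAAG, the letters of the GATA factor site, was found in 2 of 10, *AGP1* and *MUP3*, and in 14.7% of all genes. CACGTG, the letters of the Cbf1 site, was found in 0 of 10 and in 3.57% of all genes. The *MUP3* window runs into the neighbouring locus YHL037C, which lies 61 bases from *MUP3*. These matches describe the letters only.

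In Sc12 under isobutanol nearly all permease transcripts were more abundant. In Sc12 + IB against Sc12, 9 of the 10 genes were called higher and 1, *PTR2*, lower, while 17.2% of all loci were called higher and 10.6% lower. The median log2 fold change of the 10 genes was 3.1, and that of all loci was −0.02. The libraries of the 2 groups did not overlap for any of the 10 genes, but that held for 78.5% of all loci. The plot of CPM by library shows each value.

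**Figure D1:**
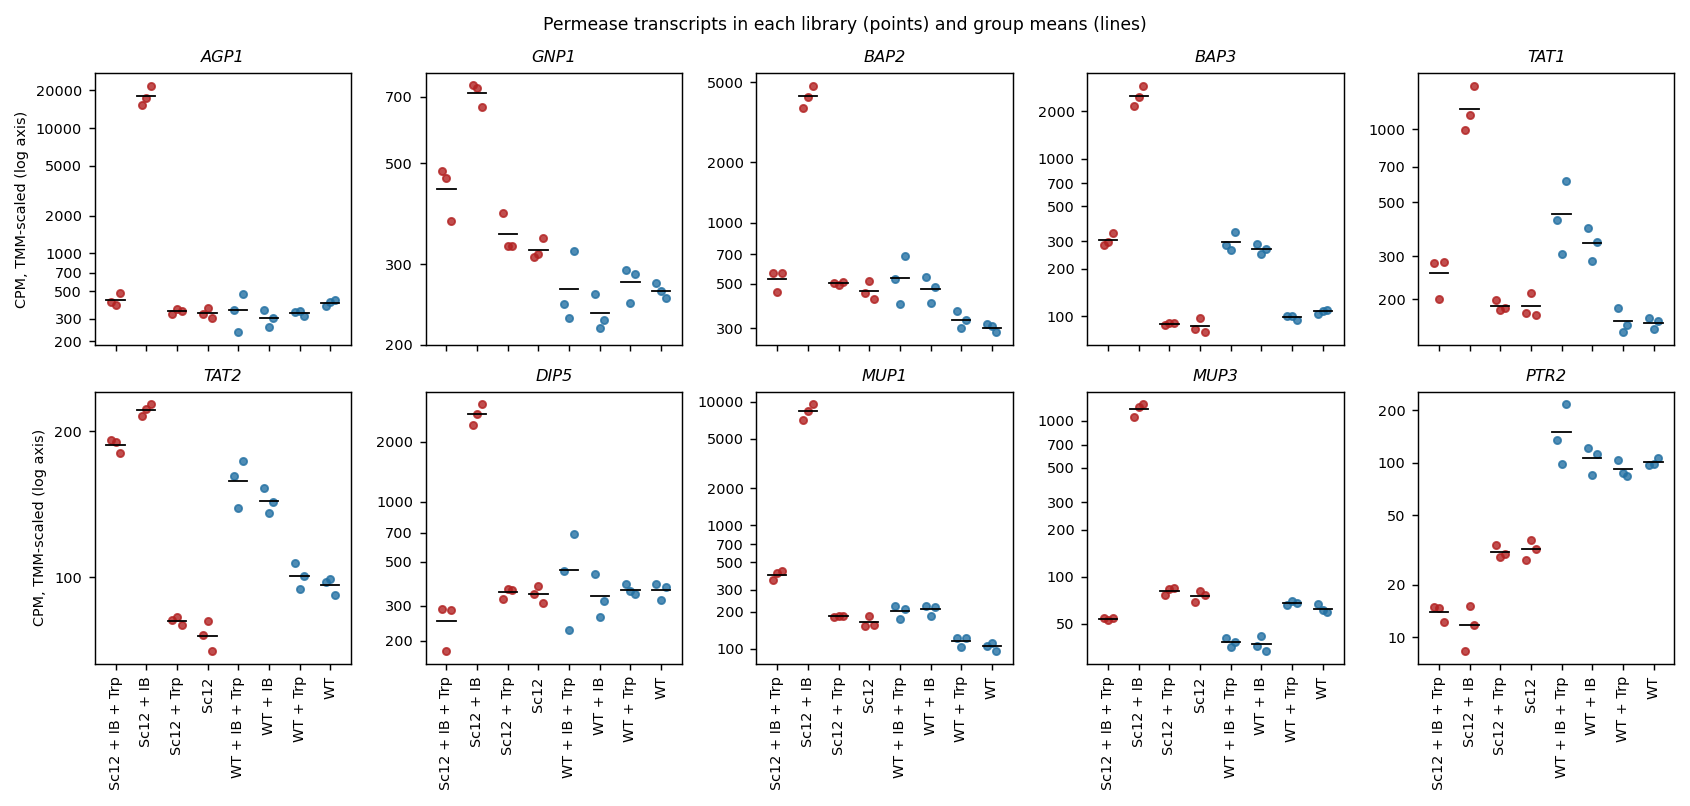
CPM of the 10 permease genes in each library (points, log axis) by group, with group means as lines; Sc12 groups are red and WT groups blue. In 9 of the 10 panels the Sc12 + IB libraries stand highest, with AGP1 at 15199 to 21856 CPM, and in PTR2 the libraries of all Sc12 groups lie below those of WT.

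The broad permeases differed most from each other. *AGP1*, a low-affinity permease for many amino acids on chromosome III (76018 to 77919, minus strand), had 15199, 17278 and 21856 CPM in Sc12 + IB, against 329, 365 and 305 CPM in Sc12. Its log2 fold change was 5.76 ± 0.22 (SE, adjusted p = 1.31e-16 in edgeR), the 10th largest in size of 6346 loci. *GNP1*, the high-affinity glutamine permease on chromosome IV, is its nearest relative among the 10, with 71.2% identical bases in the coding sequence. *GNP1* had 741, 729 and 663 CPM in Sc12 + IB, against 311, 315 and 343 CPM in Sc12, a log2 fold change of 1.14 ± 0.12 (adjusted p = 6.92e-09 in edgeR). With library totals the value of *GNP1* was 0.32 and it was no longer called, while that of *AGP1* was 4.93. No 50-base window of any of the 10 coding sequences occurs elsewhere in the genome, so exact reads of this length could be told apart. Reads shortened by trimming or with mismatches were not checked. The deposited *GNP1* locus is longer than the coding sequence and overlaps YDR509W on the other strand.

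The permeases of branched-chain and aromatic amino acids formed a graded series. *BAP2*, which carries leucine, isoleucine and valine, had 3718, 4207 and 4805 CPM in Sc12 + IB, against 448, 517 and 419 CPM in Sc12 (log2 fold change 3.20 ± 0.17). *BAP3*, a related permease of wider range, had 2148, 2464 and 2912 CPM in Sc12 + IB, against 82.8, 97.2 and 79.1 CPM in Sc12 (4.86 ± 0.13). *BAP2* and *BAP3* share 70.0% of their coding bases, and *BAP3*, the lower of the pair in Sc12, had the larger fold change. *TAT1*, which carries tyrosine, valine and leucine and tryptophan with low affinity, lies 883 bases from *BAP2* on chromosome II. It had 994, 1140 and 1511 CPM in Sc12 + IB, against 176, 212 and 172 CPM in Sc12 (2.70 ± 0.20). *TAT2*, the high-affinity tryptophan and tyrosine permease, had 215, 222 and 227 CPM in Sc12 + IB, against 76.0, 81.1 and 70.5 CPM in Sc12 (1.54 ± 0.08). It was called, but its fold change was the smallest of these permeases. With library totals it was 0.72 ± 0.10, below the fold threshold at an adjusted p of 2.68e-07 in edgeR.

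The acidic amino acid permease and the methionine permeases rose with them. *DIP5*, which carries glutamate and aspartate, had 2440, 2753 and 3087 CPM in Sc12 + IB, against 344, 378 and 311 CPM in Sc12 (log2 fold change 3.00 ± 0.27). *MUP1*, the high-affinity methionine permease, had 7108, 8402 and 9520 CPM in Sc12 + IB, against 153, 184 and 156 CPM in Sc12 (5.66 ± 0.15, the 14th largest of 6346). *MUP3*, a low-affinity methionine permease, had 1056, 1226 and 1272 CPM in Sc12 + IB, against 68.8, 81.4 and 75.9 CPM in Sc12 (3.97 ± 0.10). The 2 methionine permeases rose along with the others, *MUP1* more than *MUP3*. The lowest of these 3 values with library totals was 2.17, in *DIP5*, and all 3 were still called.

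*PTR2*, the importer of di- and tripeptides, was the exception. It had 8.29, 15.1 and 11.8 CPM in Sc12 + IB, from 65, 107 and 78 fragments, against 27.8, 36.2 and 31.9 CPM in Sc12. Its log2 fold change was −1.45 ± 0.25 (adjusted p = 1.38e-05 in edgeR) and it was −2.28 with library totals. *PTR2* is repressed by Cup9, and *CUP9* rose, with 253, 300.3 and 321 CPM in Sc12 + IB, against 125 CPM in each of the 3 Sc12 libraries (1.22 ± 0.14). The part of *CUP9* in the level of *PTR2* was not tested. Growth at harvest was not analysed here, and a difference in growth state cannot be told apart from a response to isobutanol in these samples.

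In WT the response to isobutanol was small and few of the genes were called, though 6 had an adjusted p below 0.05 in edgeR. In WT + IB against WT, 2 of the 10 genes were called higher and 0 lower, beside 11.8% and 8.89% of all loci, and their median log2 fold change was 0.32, with −0.003 over all loci. *BAP3* had 286, 250 and 268 CPM in WT + IB, against 104, 108 and 110.0 CPM in WT, a log2 fold change of 1.32 ± 0.11 (adjusted p = 4.53e-10 in edgeR). *TAT1* had 392, 287 and 343 CPM in WT + IB, against 167, 151 and 162 CPM in WT (1.09 ± 0.19), and its value was 0.98, not called, without WT + IB replicate 1. *MUP1* stood at the threshold, with 223, 184 and 216 CPM in WT + IB, against 106, 111 and 95.5 CPM in WT (1.00 ± 0.13). It was not called here, but it was called at 1.01 with DESeq2 and at up to 1.07 without single libraries. The libraries of these 3 genes did not overlap between WT + IB and WT, as in 74.8% of all loci.

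Smaller differences in WT went in both directions. *MUP3* had 36.2, 41.4 and 33.3 CPM in WT + IB, against 66.4, 60.7 and 59.5 CPM in WT, a log2 fold change of −0.75 ± 0.09 (adjusted p = 1.18e-07 in edgeR), which did not reach the fold threshold. *BAP2* and *TAT2* had values of 0.64 ± 0.15 and 0.58 ± 0.08, below the same threshold. For *AGP1*, *GNP1*, *DIP5* and *PTR2* the values were between −0.41 and 0.07, with adjusted p from 0.0526 to 0.769 in edgeR. *AGP1* thus had 351, 257 and 308 CPM in WT + IB, against 380, 407 and 427 CPM in WT.

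**Figure D2:**
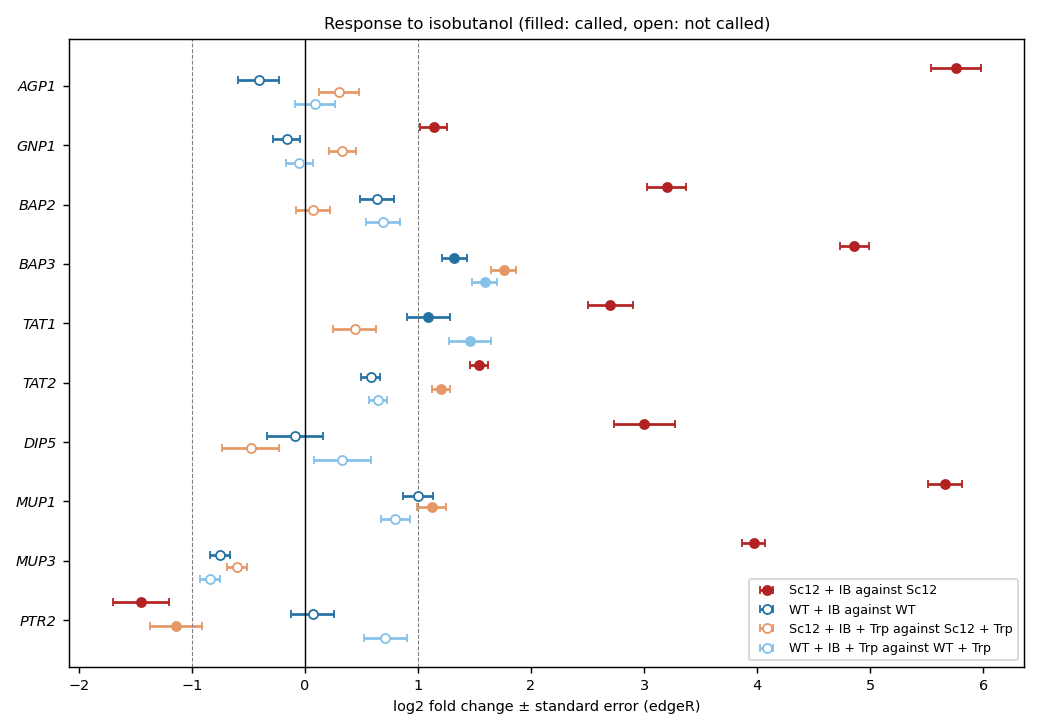
log2 fold change (x axis) ± standard error of each permease gene in response to isobutanol, in both strains without and with tryptophan; filled points are called and dashed lines mark a log2 fold change of 1 in size. AGP1 lies at 5.76 in Sc12 + IB against Sc12 and between −0.41 and 0.30 in the other comparisons, while BAP3 is called in all 4.

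The difference between the strains in this response was tested as an interaction, the fold change in Sc12 minus that in WT. Without tryptophan it was called positive for 8 of the 10 genes and negative for 1, beside 16% and 9.27% of all loci. The values ran from 1.30 ± 0.16 in *GNP1* to 6.17 ± 0.28 in *AGP1*, and *PTR2* had −1.52 ± 0.31. *TAT2* had 0.96 ± 0.11 (adjusted p = 9.7e-08 in edgeR), below the fold threshold, and was called at 1.01 without Sc12 replicate 2 and at 1.02 without WT + IB replicate 1. With library totals it had 0.20 (adjusted p = 0.18 in edgeR). *MUP3* had 4.72 ± 0.13, with fold changes of 3.97 in Sc12 and −0.75 in WT. With library totals *GNP1* and *TAT1* were no longer called, at 0.54 and 0.83, and the other 6 positive calls held. In the direct comparison of Sc12 + IB with WT + IB, 8 genes were called higher and 1, *PTR2*, lower (16.1% and 11.1% of all loci), and *TAT2*, at 0.62 ± 0.08, was not called. With library totals the call of *GNP1* was lost there, at 0.95, and *TAT2* had −0.03.

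With tryptophan most of these levels were far lower in Sc12 under isobutanol. In Sc12 + IB + Trp against Sc12 + IB, 7 of the 10 genes were called lower and 0 higher, beside 14.6% and 9.39% of all loci, and the median of the 10 was −3.02, with 0.025 over all loci. *AGP1* had 413, 388 and 480.4 CPM in Sc12 + IB + Trp, against the 15199 to 21856 CPM of Sc12 + IB, a log2 fold change of −5.41 ± 0.22 (adjusted p = 3.48e-16 in edgeR). *MUP1* had 359.8, 413 and 423 CPM in Sc12 + IB + Trp (−4.39 ± 0.14). *MUP3* had 54.5, 52.5 and 54.0 CPM in Sc12 + IB + Trp (−4.46 ± 0.10). For 9 of the 10 genes these libraries and those of Sc12 + IB did not overlap, as was so for 72.6% of all loci.

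The same direction was seen in the permeases of branched-chain and acidic amino acids. *DIP5* had 289, 178 and 285 CPM in Sc12 + IB + Trp, against 2440 to 3087 CPM in Sc12 + IB (log2 fold change −3.46 ± 0.27). *BAP3* had 283, 295 and 337 CPM in Sc12 + IB + Trp (−3.04 ± 0.12). *BAP2* had 565, 455 and 561 CPM in Sc12 + IB + Trp (−3.01 ± 0.16), and *TAT1* had 281, 199 and 283 CPM (−2.25 ± 0.19). *TAT2* kept most of its level, with 192, 190.1 and 180.2 CPM in Sc12 + IB + Trp, against 215, 222 and 227 CPM in Sc12 + IB (−0.24 ± 0.08, adjusted p = 0.00805 in edgeR). The direction of *TAT2* depends on the scaling, since it was 0.51 ± 0.09 with library totals. *GNP1* had −0.69 ± 0.12, and 0.05 with library totals. *PTR2* had 14.9, 14.7 and 12.1 CPM in Sc12 + IB + Trp, a value of 0.25 ± 0.26 that was not called, though with library totals it was called at 1.01.

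**Figure D3:**
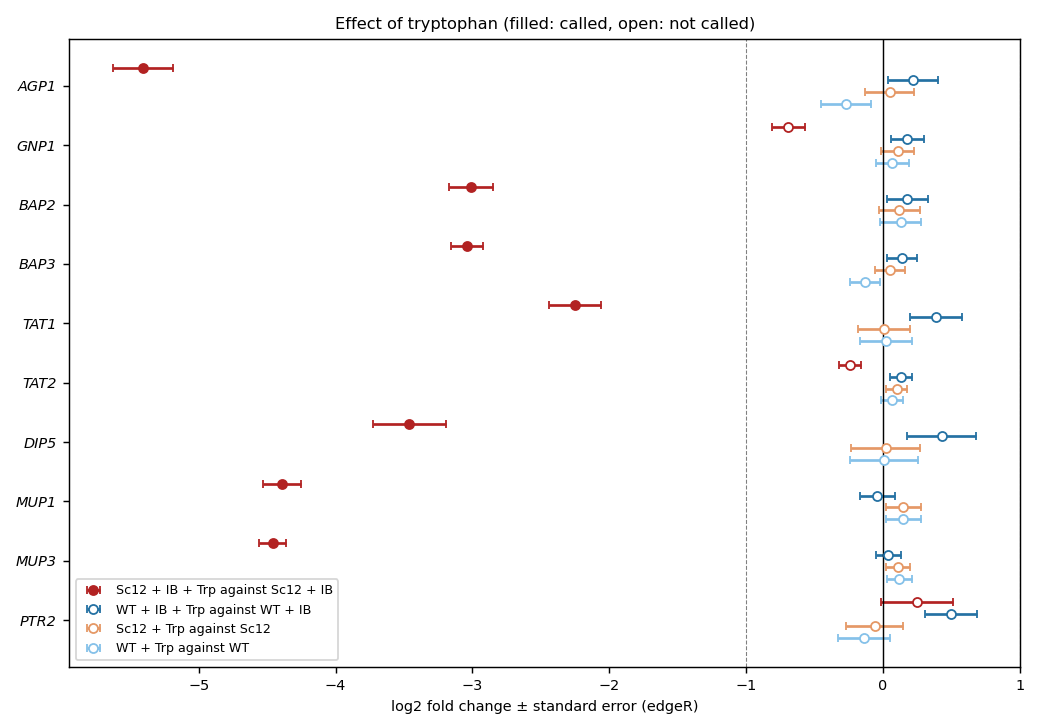
log2 fold change (x axis) ± standard error of each permease gene with added tryptophan, in both strains under isobutanol and without it. Filled points are called and dashed lines mark a log2 fold change of 1 in size. The 7 filled points all belong to Sc12 + IB + Trp against Sc12 + IB and run from −5.41 in AGP1 to −2.25 in TAT1.

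Without isobutanol, or in WT, no effect of tryptophan on these genes was called. In WT + IB + Trp against WT + IB 0 of the 10 genes were called by edgeR, with 2 at an unadjusted p below 0.05, and 0 were called by DESeq2 or limma (0% of all loci called). In Sc12 + Trp against Sc12 and in WT + Trp against WT 0 genes were called by edgeR, DESeq2 or limma and 0 had an unadjusted p below 0.05, with 0.378% and 0.0158% of all loci called. The log2 fold changes of *TAT2*, the main tryptophan permease, were 0.10 ± 0.08 in Sc12 and 0.07 ± 0.08 in WT. Under isobutanol, the interaction of tryptophan and strain was called negative for 7 genes and positive for 0 (15.5% and 9.94% of all loci), from −5.63 ± 0.28 in *AGP1* to −2.64 ± 0.27 in *TAT1*. *GNP1* and *TAT2*, at −0.87 and −0.37, and *PTR2*, at −0.25, were not called. *GNP1* was called at −1.11 with limma and had −0.13 with library totals, where *TAT2* had 0.37.

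The libraries of WT + IB + Trp varied more than others. *DIP5* had 449, 226 and 689 CPM and *TAT1* had 422, 306 and 610.2 CPM in WT + IB + Trp, with replicate 3 highest and replicate 2 lowest. The same order of libraries was seen in *AGP1*, *GNP1*, *BAP2*, *BAP3*, *TAT2* and *PTR2*, and the 10 genes together took 0.287, 0.204 and 0.393% of the fragments. This spread touches every comparison that includes WT + IB + Trp, in the paragraphs above and below. Without replicate 2 of WT + IB + Trp, 7 of the 10 genes had an unadjusted p below 0.05 in WT + IB + Trp against WT + IB. Of the 10, 3 then had an adjusted p below 0.05 in edgeR, and 0 were called.

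With tryptophan present, few of the genes were called in response to isobutanol in either strain. In each strain, however, 7 of the 10 had an adjusted p below 0.05 in edgeR, most of them with changes below or near the fold threshold. In Sc12 + IB + Trp against Sc12 + Trp, 3 of the 10 genes were called higher and 1 lower, beside 9.93% and 8.02% of all loci. *BAP3* had 283, 295 and 337 CPM in Sc12 + IB + Trp, against 87.8, 90.8 and 90.4 CPM in Sc12 + Trp, a log2 fold change of 1.76 ± 0.11 (adjusted p = 7.15e-12 in edgeR). *TAT2* had 192, 190.1 and 180.2 CPM in Sc12 + IB + Trp, against 81.5, 82.9 and 79.8 CPM in Sc12 + Trp (1.20 ± 0.08). *MUP1* rose by 1.12 ± 0.13, and *PTR2* fell, by 1.14 ± 0.23 on the log2 scale. *AGP1*, the most strongly raised of the 10 without tryptophan, had 0.30 ± 0.18 here (adjusted p = 0.145 in edgeR).

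In WT + IB + Trp against WT + Trp, 2 genes were called higher and 0 lower (11.2% and 8.56% of all loci). *BAP3* had 284, 262 and 342 CPM in WT + IB + Trp, against 101, 100.1 and 94.2 CPM in WT + Trp (log2 fold change 1.59 ± 0.11), and *TAT1* had 1.46 ± 0.19. *BAP3* was thus called in both strains with and without tryptophan, with fold changes of 4.86 in Sc12 + IB against Sc12 and 1.32, 1.76 and 1.59 in the other 3. The interaction with tryptophan was called negative for 2 genes and positive for 0 (11.6% and 11.1% of all loci), *PTR2* at −1.85 ± 0.30 and *TAT1* at −1.02 ± 0.27. The call of *TAT1* lies at the threshold and was lost in several settings, down to −0.73 without WT + IB + Trp replicate 3.

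*MUP3* was set apart from *MUP1* in these comparisons. *MUP3* had 54.5, 52.5 and 54.0 CPM in Sc12 + IB + Trp, against 76.1, 83.1 and 84.2 CPM in Sc12 + Trp (log2 fold change −0.60 ± 0.09). In WT + IB + Trp it had 40.5, 35.2 and 38.1 CPM, against 66.0, 70.0 and 67.4 CPM in WT + Trp (−0.84 ± 0.09). Its libraries under isobutanol lay below those without it in each of these pairs and in WT + IB against WT, none of them called for size, while in Sc12 + IB against Sc12 they lay above. *MUP1*, by contrast, had positive values in all 4 comparisons, of 5.66, 1.00, 1.12 and 0.80.

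Without isobutanol the strains differed in 1 of the 10 genes by the call. In Sc12 against WT 1 gene was called lower and 0 higher (1.53% and 1.78% of all loci). This was *PTR2*, with 27.8, 36.2 and 31.9 CPM in Sc12, against 97.4, 98.8 and 105.9 CPM in WT, a log2 fold change of −1.66 ± 0.21 (adjusted p = 1.51e-06 in edgeR). With tryptophan it had 33.6, 28.7 and 29.8 CPM in Sc12 + Trp, against 103, 87.0 and 84.4 CPM in WT + Trp (−1.58 ± 0.20), and it was again the 1 gene called (1.65% of all loci lower and 1.56% higher). In Sc12 + IB against WT + IB the value was −3.18 ± 0.24. In Sc12 + IB + Trp, with 14.9, 14.7 and 12.1 CPM, against 135, 98.6 and 216 CPM in WT + IB + Trp, it was −3.43 ± 0.22, the 17th largest of 6346, and no other gene was called (12.2% of all loci lower and 11.8% higher). The libraries of the 2 strains thus did not overlap for *PTR2* under any of the 4 conditions, as was so for 66.7% of all loci in Sc12 against WT, 52.1% with tryptophan, 74.2% with isobutanol and 69.9% with both. *PTR2* had fewer fragments in Sc12 also where tryptophan was added.

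Other strain differences passed by adjusted p alone. *MUP1* and *BAP2* had 0.66 ± 0.13 and 0.61 ± 0.15 in Sc12 against WT, and *TAT2* had −0.34 ± 0.08 (adjusted p = 0.000264, 0.003 and 0.00152 in edgeR). *TAT2* had 76.0, 81.1 and 70.5 CPM in Sc12, against 98.0, 99.3 and 91.9 CPM in WT. In Sc12 + IB + Trp against WT + IB + Trp *MUP1* had 0.98 ± 0.13, and it was called at 1.05 without Sc12 + IB + Trp replicate 1 and at 1.08 with library totals. *DIP5* had −0.86 ± 0.25 there, and was called at −1.16 without WT + IB + Trp replicate 2.

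Compared per length of coding sequence, *AGP1* led in Sc12 + IB, with 9522 ± 1790 CPM per kb (SD, n = 3). *MUP1* followed with 4837 ± 699, *BAP2* with 2319 ± 297, *DIP5* with 1511 ± 177 and *BAP3* with 1382 ± 212 CPM per kb. *DIP5* and *BAP3* overlapped in their libraries, as did the next pair, *MUP3* at 722 ± 69.4 and *TAT1* at 653 ± 143 CPM per kb. Below them came *GNP1* at 357 ± 21.0, *TAT2* at 124 ± 3.55 and *PTR2* at 6.49 ± 1.89 CPM per kb. In Sc12 the order was another. *BAP2* led with 252 ± 27.4 CPM per kb, and *DIP5*, *AGP1* and *GNP1* followed at 188, 175 and 162 CPM per kb, with each overlapping the next. *TAT1* and *MUP1*, at 100.3 and 95.4 CPM per kb, overlapped, as did *BAP3*, *MUP3* and *TAT2* between 42.7 and 47.6 CPM per kb, and *PTR2* was last with 17.7 ± 2.33 CPM per kb.

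*BAP2* also had the highest mean in Sc12 + IB + Trp and in Sc12 + Trp, though in Sc12 + IB + Trp its libraries overlapped those of *AGP1*. *BAP2* had 288 ± 34.3 CPM per kb in Sc12 + IB + Trp and 274 ± 5.70 CPM per kb in Sc12 + Trp, and *PTR2* was last in both, at 7.70 and 17.0 CPM per kb. In WT + IB + Trp and WT + IB *BAP2* also had the highest mean, 293 ± 79.4 and 258 ± 37.3 CPM per kb. It overlapped *DIP5* in both groups, and *TAT1* and *AGP1* as well in WT + IB + Trp. In WT *AGP1* at 213 ± 12.5 and *DIP5* at 197 ± 18.6 CPM per kb overlapped at the top. In WT + Trp *DIP5* at 198 ± 11.6 and *BAP2* at 181 ± 17.5 CPM per kb overlapped. *MUP3* was last in the 4 WT groups, at 22.5 to 41.3 CPM per kb.

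As a share of all fragments in a library, which does not depend on the scaling, the 10 genes took 2.31, 2.5 and 2.7% in Sc12 + IB, against 0.228, 0.259 and 0.223% in Sc12. *AGP1* alone took 1.04, 1.13 and 1.28% in Sc12 + IB, against 0.0372, 0.0417 and 0.0346% in Sc12. Of the fragments of the 10 permeases, 45.2, 45.0 and 47.7% were from *AGP1* in Sc12 + IB, against 16.3, 16.1 and 15.5% in Sc12. In Sc12 + IB + Trp the 10 genes took 0.304, 0.302 and 0.319%, and in WT + IB 0.292, 0.209 and 0.242%. *AGP1* and *MUP1* together made up 66.3, 66.8 and 68.4% of them in Sc12 + IB, against 23.9, 24.2 and 23.5% in Sc12.

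**Figure D4:**
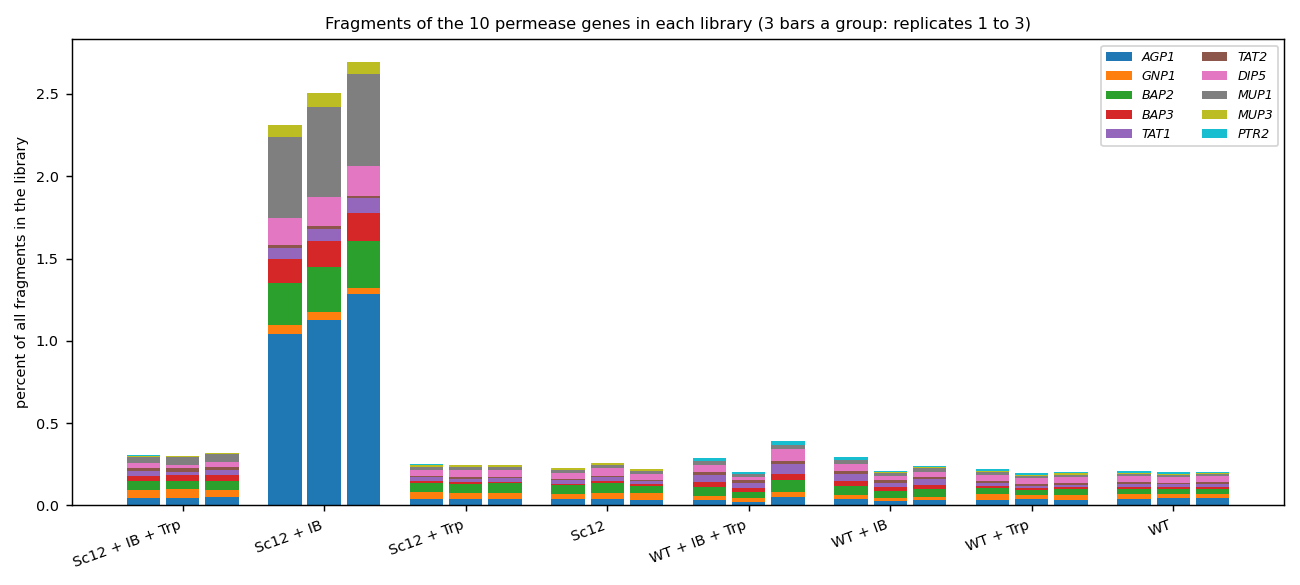
Share of all fragments in each library (y axis, percent) that came from the 10 permease genes, stacked by gene, with 3 bars a group for replicates 1 to 3. The Sc12 + IB bars reach 2.31 to 2.7%, mostly AGP1 and MUP1, and no other library passes 0.393%.

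The other plasma membrane permeases of a list of 16 moved in part with these genes. In Sc12 + IB against Sc12, 11 of the 16 were called higher and 0 lower, beside 17.2% and 10.6% of all loci, with a median log2 fold change of 1.77. *OPT1*, a transporter of oligopeptides and glutathione, had 1705, 1897 and 2395 CPM in Sc12 + IB, against 58.3, 62.9 and 56.8 CPM in Sc12 (5.07 ± 0.12), so this peptide transporter rose where *PTR2* fell. *GAP1*, the general amino acid permease, rose by 4.43 ± 0.17, *UGA4*, the GABA permease, by 4.60 ± 0.20 and *CAN1*, the arginine permease, by 3.91 ± 0.14. In Sc12 + IB + Trp against Sc12 + IB 11 of the 16 were called lower, beside 14.6% of all loci. In WT + IB against WT 2 of the 16 were called higher and 5 lower (11.8% and 8.89% of all loci), with the largest values in *OPT2* (1.53 ± 0.20) and in *SAM3*, the S-adenosylmethionine permease (−1.64 ± 0.12). Others called were *GAP1* at −1.45 ± 0.15 and *HIP1*, the histidine permease, at 1.26 ± 0.09. *GAP1* had 207, 185 and 184 CPM in WT + IB, against 542, 479 and 549.6 CPM in WT.

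A list of 15 held genes of amino acid sensing and of the Stp factors. In Sc12 + IB against Sc12 2 were called higher, *CUP9* and *YCK2*, a casein kinase of the SPS pathway (1.12 ± 0.09), and 3 lower, beside 17.2% and 10.6% of all loci, with a median of −0.38. The 3 were *SSY1*, the sensor itself (−1.39 ± 0.12), *SSY5*, its protease (−1.06 ± 0.09), and *ASI3*, part of a ubiquitin ligase of the inner nuclear membrane (−1.17 ± 0.13). *STP1* and *STP2* had −0.68 ± 0.08 and 0.33 ± 0.10 and were not called. *GCN4* had 0.42 ± 0.14 and was not called, though in Sc12 + IB + Trp against Sc12 + IB it fell, by 1.45 ± 0.14 on the log2 scale. In WT + IB against WT *SSY5* and *PTR3*, both of the SPS sensor, were called lower, at −1.49 ± 0.09 and −1.21 ± 0.08, and 0 of the 15 higher (8.89% and 11.8% of all loci).

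Of 8 genes that act in sorting permeases, *NPR1*, a kinase that stabilises permeases at the membrane, was the 1 called in Sc12 + IB against Sc12, higher by 1.15 ± 0.11. In WT + IB against WT *NPR1* and *ALY2*, an arrestin-related adaptor of permease endocytosis, were called lower, at −1.34 ± 0.12 and −1.02 ± 0.10, beside 8.89% of all loci. Of 12 tested vacuolar transporters, 2 rose in Sc12 + IB against Sc12, *RTC2* (3.86 ± 0.12) and *VBA1* (1.41 ± 0.09), both transporters of basic amino acids at the vacuolar membrane. The counts called higher in Sc12 + IB against Sc12 were thus 9 of 10 and 11 of 16 for the permeases of the plasma membrane and 2 of 15, 1 of 8 and 2 of 12 for the other lists, where 17.2% of all loci were called higher. The last 3 counts lie near that background share, and the differences between the lists were not tested. All the lists were chosen with earlier results of these data known.

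**Figure D5:**
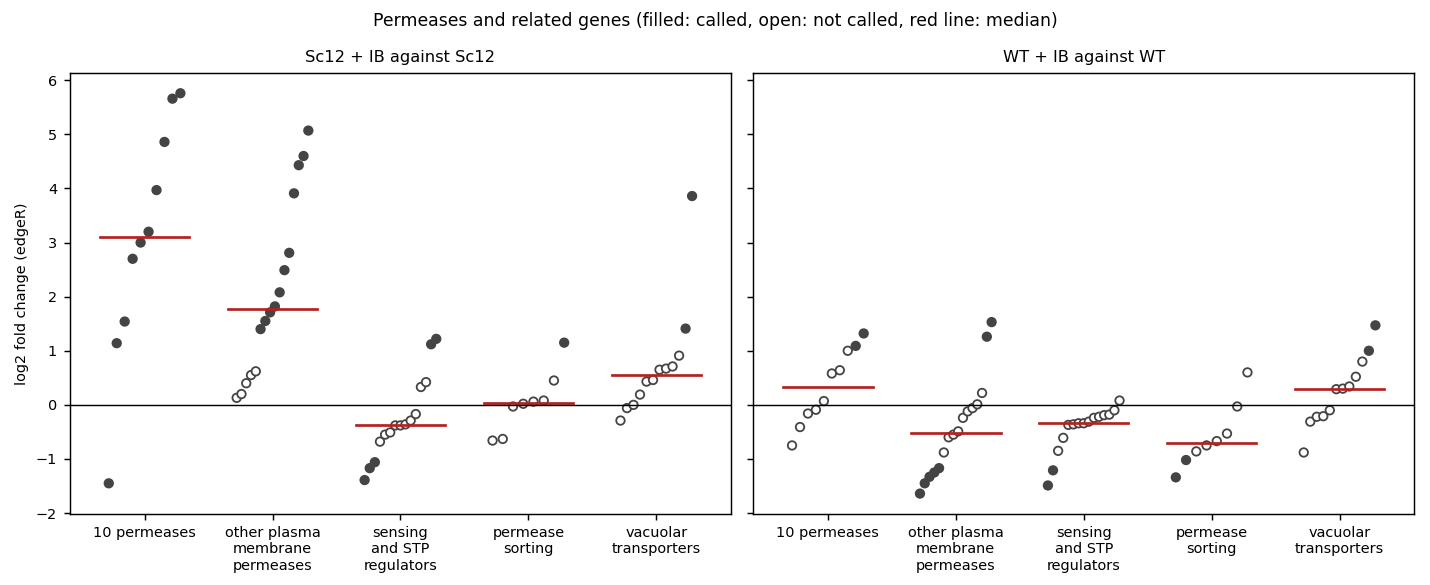
log2 fold change (y axis) of each gene of the 10 permeases and of 4 other lists in Sc12 + IB against Sc12 (left) and WT + IB against WT (right); filled points are called and red lines are medians. The median of the 10 permeases is 3.1 on the left and 0.32 on the right, and that of the 16 other plasma membrane permeases is 1.77 and −0.52.

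The loci most like each permease in pattern were ranked by Pearson's r of log CPM over the 24 libraries, which share groups and so follow mainly the differences between them. *AGP1* was most like *PDC5*, a pyruvate decarboxylase (0.992), then *OPT1* and *THI73*. *MUP1* was most like *LYP1*, the lysine permease (0.997), *BAP2* like *SMP1* (0.991), *BAP3* like *PBS2* (0.99) and *MUP3* like *SNX41* (0.991). *TAT1* was most like *LEU4*, an enzyme of leucine synthesis (0.978), and *TAT2* like *RME1* (0.993). The likeness was weakest for *GNP1*, to *SKN7* (0.959), and *PTR2* followed the joined locus of *SRL1* and *YOR248W* (0.977). *DIP5* was most like YPL264C (0.979), which is also its neighbour, 413 bases away, and which rose by 2.36 in Sc12 + IB against Sc12. Among the 10 themselves, *BAP2* and *MUP1* were most alike (0.981), *AGP1* and *MUP3* had 0.961, and *PTR2* had negative values with each of the others, from −0.841 to −0.304. Other loci beside the permeases moved in both directions, such as *TIP1* beside *BAP2* (−2.71) and *RPL40B* beside *PTR2* (2.38).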

How the data were processed

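RNA of 24 samples was sequenced as 50-bp single-end reads. According to the submitters' processing notes, bcl2fastq 2.18, Trimmomatic 0.39, TopHat2 2.1.1 with the sacCer3 genome and Cufflinks 2.2.1 were used. The gene annotation is not given in the sources used here. The estimated counts of fragments per locus and library were deposited by the authors without scaling, and 98.83% of them are whole within 0.001. The authors' deposited FPKM correct these fragments for length and depth, with a scaling between libraries, but differ from them further by gene. In WT replicates 1 and 3 *DIP5* had 406 and 391 CPM with library totals, but 181 and 92.4 FPKM. *AGP1* had 401 and 449 CPM with library totals there, but 182 and 283 FPKM. The source of this difference was not looked into. The authors' table of fold changes and p-values was not used. Of 6929 loci, 24 had a failed estimate in at least 1 library and were left out.

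After rounding, counts entered edgeR 4.0.16 (R 4.3.3), in 1 quasi-likelihood fit of 8 group means with TMM scaling, 24 libraries and 16 residual degrees of freedom. Loci with a mean of at least 1 FPKM were kept, and p was adjusted by Benjamini-Hochberg over 6346 loci for 12 comparisons and 3 interactions. An exact two-sided permutation test of 3 against 3 libraries cannot go below 0.1, so single genes carry the p of the fit, whose common biological coefficient of variation was 10.4%. The script was tested on simulated data with known changes. Limma 3.58.1 on log2(FPKM + 1) and log2(FPKM + 0.1), DESeq2 1.42.0, other scalings, no filter, fits of the compared groups alone and fits without single libraries or the make-up libraries were alternatives. The members and gene lists were chosen with earlier results of these data known. All 10 members are described, and of each other list the called gene with the largest change in each direction could be named; *GAP1*, *UGA4*, *CAN1*, *HIP1*, *YCK2*, *ASI3*, *SSY5*, *STP1*, *STP2*, *GCN4*, *PTR3*, *ALY2* and *VBA1*, and *TIP1* and *RPL40B* beside permeases, were named after their values were seen. Of 7048 systematic names, 5999 were matched to RefSeq, and 5349 of 5861 single-gene loci had the same coordinates. Sequences were read with Biopython 1.88.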

Additional observations from a re-analysis of the deposited data

Results flagged for a closer look

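The response to isobutanol differed between the strains without tryptophan for 9 of the 10 genes, by edgeR's test of the difference itself (log2 fold change in Sc12 minus that in WT). The values were 6.17 in *AGP1*, 4.72 in *MUP3*, 4.67 in *MUP1*, 3.54 in *BAP3*, 3.09 in *DIP5*, 2.56 in *BAP2*, 1.61 in *TAT1*, 1.3 in *GNP1* and −1.52 in *PTR2*. With tryptophan the difference was called for 2 genes, at −1.02 in *TAT1* and −1.85 in *PTR2*. The effect of tryptophan under isobutanol also differed between the strains for 7 genes, with −5.63 in *AGP1*, −4.5 in *MUP3*, −4.35 in *MUP1*, −3.89 in *DIP5*, −3.19 in *BAP2*, −3.18 in *BAP3* and −2.64 in *TAT1*.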

How the results depend on the processing

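Of 2350 log2 fold changes of single permeases under an alternative, 34 crossed the threshold of the call and 0 called values changed sign. In Sc12 + IB against Sc12, 7 genes were called higher with library totals and 9 otherwise scaled, the call of *GNP1* and *TAT2* being lost, as described above, and in Sc12 + IB against WT + IB 7 were called higher and 8 otherwise. The interaction of tryptophan and strain under isobutanol had 8 negative calls with limma and 7 otherwise. The count of genes called lower in Sc12 + IB + Trp against Sc12 + Trp was 0 with limma at either pseudocount. In Sc12 against WT it was 0 with limma on log2(FPKM + 0.1), where *PTR2* had −1.36. These limma fits use FPKM, which do not follow the counts in *PTR2*. In WT, *PTR2* had 51.0, 53.1 and 27.1 FPKM in replicates 1 to 3, but 97.4, 98.8 and 105.9 CPM. In Sc12 + Trp it had 18.2, 12.8 and 9.93 FPKM, but 33.6, 28.7 and 29.8 CPM. With library totals 1 gene was called higher in Sc12 + IB + Trp against Sc12 + IB, and 1 in Sc12 + IB + Trp against WT + IB + Trp, where the compared groups fitted alone also gave 1. The interaction of isobutanol and strain with tryptophan kept 1 negative call under the size factors of DESeq2, with no filter and without the make-up libraries. Without single libraries, the counts were 1 to 3 called higher in WT + IB against WT, 8 to 9 positive in the interaction of isobutanol and strain without tryptophan, 0 to 1 higher and 1 to 2 lower in Sc12 + IB + Trp against WT + IB + Trp, and 1 to 3 negative in that interaction with tryptophan, where *DIP5* had −1.11 without WT + IB + Trp replicate 2. Fits that left out 1 library of a group take the remaining libraries to vary as the other groups do. The samples were treated as unpaired, since no comparison had a correlation of same-numbered libraries above 0.1 in all 3 pairs. With 3 libraries a group this cannot exclude pairing, and replicate 2 of WT + IB + Trp against WT + IB had 0.603. With the replicate block, 9 genes were called higher and 1 lower in Sc12 + IB against Sc12 and 2 higher in WT + IB against WT, the same counts as without it, and no other count changed. Depth limits *PTR2* most, with 65 to 107 fragments per library in Sc12 + IB.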
